A study of Homo sapiens with 60 samples.

Results

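Cohesin and acetylated chromatin were examined at the 4 HOX clusters and at the clustered protocadherins in PC9 lung adenocarcinoma cells, using every deposited peak whose GRCh37 interval overlapped 1 of 5 fixed windows. The windows were HOXA (chr7:27100000-27300000), HOXB (chr17:46550000-46850000), HOXC (chr12:54300000-54500000), HOXD (chr2:176900000-177100000) and the protocadherins (chr5:140100000-140900000). Of 507516 peaks in 24 lists, 729 were members. HOXA held 199 of them, HOXB 147, HOXC 153, HOXD 65 and the protocadherin cluster 165. By antibody, 260 were RAD21 peaks, 291 PDS5A peaks, 162 H3K27Ac peaks and 16 IgG peaks. No measured value other than position chose them, so peaks of any quality are included.

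PC9 is an established human lung adenocarcinoma line. CUT&RUN, in which an antibody-tethered nuclease releases the DNA that it is bound to, was run on wild-type cells (WT), on cells whose METTL7A gene was knocked out (KO), and on knockout cells that overexpressed METTL7A carrying MYC and FLAG tags (Rescue). Each genotype was profiled untreated or after 6 to 8 weeks of osimertinib, a kinase inhibitor of mutant EGFR, at a dose raised stepwise from 100 nM. The Rescue cells therefore carry the knockout as well, and they hold METTL7A by overexpression. Whether the knockout line is 1 clone, and whether replicates came from separate cultures, was not given in the sources used here. The 60 samples formed 30 groups of 2. The 12 H2A samples are not analysed here, and the other 48 samples stand behind the 24 lists. Each list joins both replicates of 1 antibody, genotype and treatment, so every condition gave 1 list and no test between conditions was possible. Intervals below are 95% and cover counting error only. Peak lists carry no read totals, so the depth behind a peak is unknown, and they cannot show whether METTL7A was lost or restored.

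HOX genes encode homeodomain transcription factors that pattern the body axis, and their order along each cluster follows the order of their expression along that axis. Clustered protocadherins encode surface adhesion proteins that give neurons individual identities. Their alternative promoters are chosen with the help of CTCF, a DNA-binding protein that stalls cohesin, the ring complex that extrudes chromatin loops. RAD21 closes the cohesin ring, PDS5A binds the ring and regulates its loading state and release, and H3K27Ac, acetylation of histone H3 at lysine 27, marks active promoters and enhancers.

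RefSeq on GRCh38.p14 lists 11 HOXA, 10 HOXB, 9 HOXC and 9 HOXD genes, and 16 PCDHA, 16 PCDHB and 22 PCDHG genes. Of these 93 genes, 67 had a promoter sequence of 300 bases in the RefSeq table, 250 before and 50 after the start. No GRCh37 sequence or annotation was used, so no gene was read from a peak's position, and the sequences are not set against the peaks. The sequences below are shown because CTCF can stall cohesin, and CTCF binding at these promoters was not measured here. First come the 4 HOX promoter stretches with a core of the CTCF motif, read as CC, then 3 bases of any kind, AG, 2 of any kind and GGC. Capitals mark the core, and all runs are 5′ to 3′ on the gene's strand.
HOXD10, chr2:176116668-176116703, plus strand: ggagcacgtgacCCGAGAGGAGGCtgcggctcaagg
HOXD1, chr2:176188418-176188446, plus strand: cctgtCCGAGAGCAGGCgttctgccctct
HOXA10, chr7:27179894-27179929, minus strand: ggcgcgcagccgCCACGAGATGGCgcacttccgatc
HOXA11, chr7:27185396-27185431, minus strand: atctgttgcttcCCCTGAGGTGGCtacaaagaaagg

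The protocadherin promoters share an element built on the 4 letters CGCT, whose letters differ from the core as read above. Whether CTCF binds that element was not tested here. The first 3 promoters of each family in genome order with that family's longer version are printed here, with the longer version in capitals, all on the plus strand of GRCh38.p14 from RefSeq.
PCDHA1, chr5:140786086-140786117: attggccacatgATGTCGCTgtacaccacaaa
PCDHA2, chr5:140794781-140794812: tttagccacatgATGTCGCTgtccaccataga
PCDHA4, chr5:140806979-140807010: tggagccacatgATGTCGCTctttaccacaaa
PCDHB2, chr5:141094543-141094575: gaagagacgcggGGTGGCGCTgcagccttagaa
PCDHB3, chr5:141100392-141100424: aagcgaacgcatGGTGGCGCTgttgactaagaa
PCDHB4, chr5:141121722-141121754: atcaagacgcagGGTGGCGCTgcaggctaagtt
PCDHGA1, chr5:141330405-141330436: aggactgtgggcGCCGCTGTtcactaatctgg
PCDHGB1, chr5:141350027-141350058: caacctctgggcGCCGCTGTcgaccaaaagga
PCDHGA7, chr5:141382651-141382682: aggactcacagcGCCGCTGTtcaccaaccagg

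The CTCF core, searched on both strands, was in 4 of 27 HOX promoters (14.8%), in 1 of 52 protocadherin promoters (that of PCDHB9) and in 10.6% of all 35116 RefSeq promoters. CGCT was in 51 of 52 protocadherin promoters and in 23 of 27 HOX promoters (85.2%), against 70.0% of all promoters. The 3 longer versions were chosen after the promoter letters had been seen, and each contains CGCT, so these matches overlap. ATGTCGCT was in 9 of 13 PCDHA promoters and in 0.234% of all. GGTGGCGCT was in 13 of 14 PCDHB promoters, all except that of PCDHB1, and in 0.501% of all. GCCGCTGT was in 13 of 25 PCDHG promoters and in 1.64% of all. These are letter matches, and they show neither binding nor its absence in PC9 cells.

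The lists differed in length between conditions, which bears on every count that follows. RAD21 lists held 15525 peaks in untreated WT, 38829 in treated WT, 19008 in untreated KO, 17687 in treated KO, 24686 in untreated Rescue and 26315 in treated Rescue. PDS5A lists held 14395, 34781, 9232, 18352, 33598 and 27171 in that order, and H3K27Ac lists 22625, 44124, 23681, 39192, 39505 and 45234. Treated WT thus had the longest RAD21 and PDS5A lists, and untreated KO the shortest PDS5A list. Shares of a list were therefore compared as well as counts. The irreproducible discovery rate (IDR) measures how well a peak's rank matched between replicates, and 0.05 or less (a deposited value of 1.301 or more on the −log10 scale) is the usual limit.

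Across the clusters 266 of 729 members had an IDR of 0.05 or less. That was 108 of 260 RAD21 members (41.5%, against 35.5% of all RAD21 peaks), 110 of 291 PDS5A members (37.8% against 32.6%) and 48 of 162 H3K27Ac members (29.6% against 26.6%). Of the IgG members it was 0 of 16, against 3.02% of all IgG peaks, and 16 peaks are too few to tell these shares apart. Reproducible RAD21 peaks were 39 of 71 in HOXA, 23 of 50 in HOXB, 11 of 51 in HOXC, 18 of 27 in HOXD and 17 of 61 in the protocadherins. HOXD thus had the highest share of reproducible RAD21 members and HOXC the lowest. The RAD21 member just outside the limit, in HOXD of untreated WT, had a −log10 IDR of 1.299, and the one just inside, in the protocadherins of treated Rescue, had 1.32. For PDS5A these were 1.276 and 1.303, and for H3K27Ac 1.256 and 1.423.

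IgG, the antibody control, gave 16 member peaks, 9 in HOXA, 2 each in HOXB, HOXC and HOXD and 1 in the protocadherins. The lower of their 2 replicate −log10 p values ran from 3.08 to 8.77, the highest at chr7:27239569-27240429 in treated WT. RAD21 members lay on an IgG peak of any condition in 16.5% of cases, against 29.7% of all RAD21 peaks. PDS5A members did so in 13.7% against 27.8%, and H3K27Ac members in 23.5% against 20.7%. The cohesin shares differed between clusters, with 42 of 199 HOX RAD21 peaks (21.1%) and 38 of 214 HOX PDS5A peaks (17.8%) on an IgG peak, but 1 of 61 and 2 of 77 in the protocadherins. In HOXA the RAD21 share was 25.4%.

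RAD21 peaks were dense in HOXA. That window held 9 RAD21 peaks in untreated WT, 14 in treated WT, 12 in untreated KO, 10 in treated KO, 12 in untreated Rescue and 14 in treated Rescue. Between 0.379% and 2.04% of 11076 genome windows of 200 kb held as many or more, depending on the list. HOXB, a window of 300 kb, held 7, 14, 8, 7, 7 and 7 RAD21 peaks in the same order, HOXC 7, 8, 7, 8, 9 and 12, and HOXD 3, 7, 4, 4, 4 and 5. Genome windows of the same length held as many RAD21 peaks or more in 1.56% to 12.4% of cases for HOXC. These shares were 5.77% to 15.4% for HOXB and 13.6% to 22.9% for HOXD. PDS5A counts were 7, 15, 7, 10, 13 and 16 in HOXA, 9, 16, 4, 9, 10 and 10 in HOXB, 5, 10, 4, 7, 13 and 15 in HOXC, and 5, 9, 2, 5, 7 and 6 in HOXD. In HOXB, HOXC and HOXD the untreated KO list gave the fewest PDS5A peaks, and it was also the shortest PDS5A list.

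**Figure D1:**
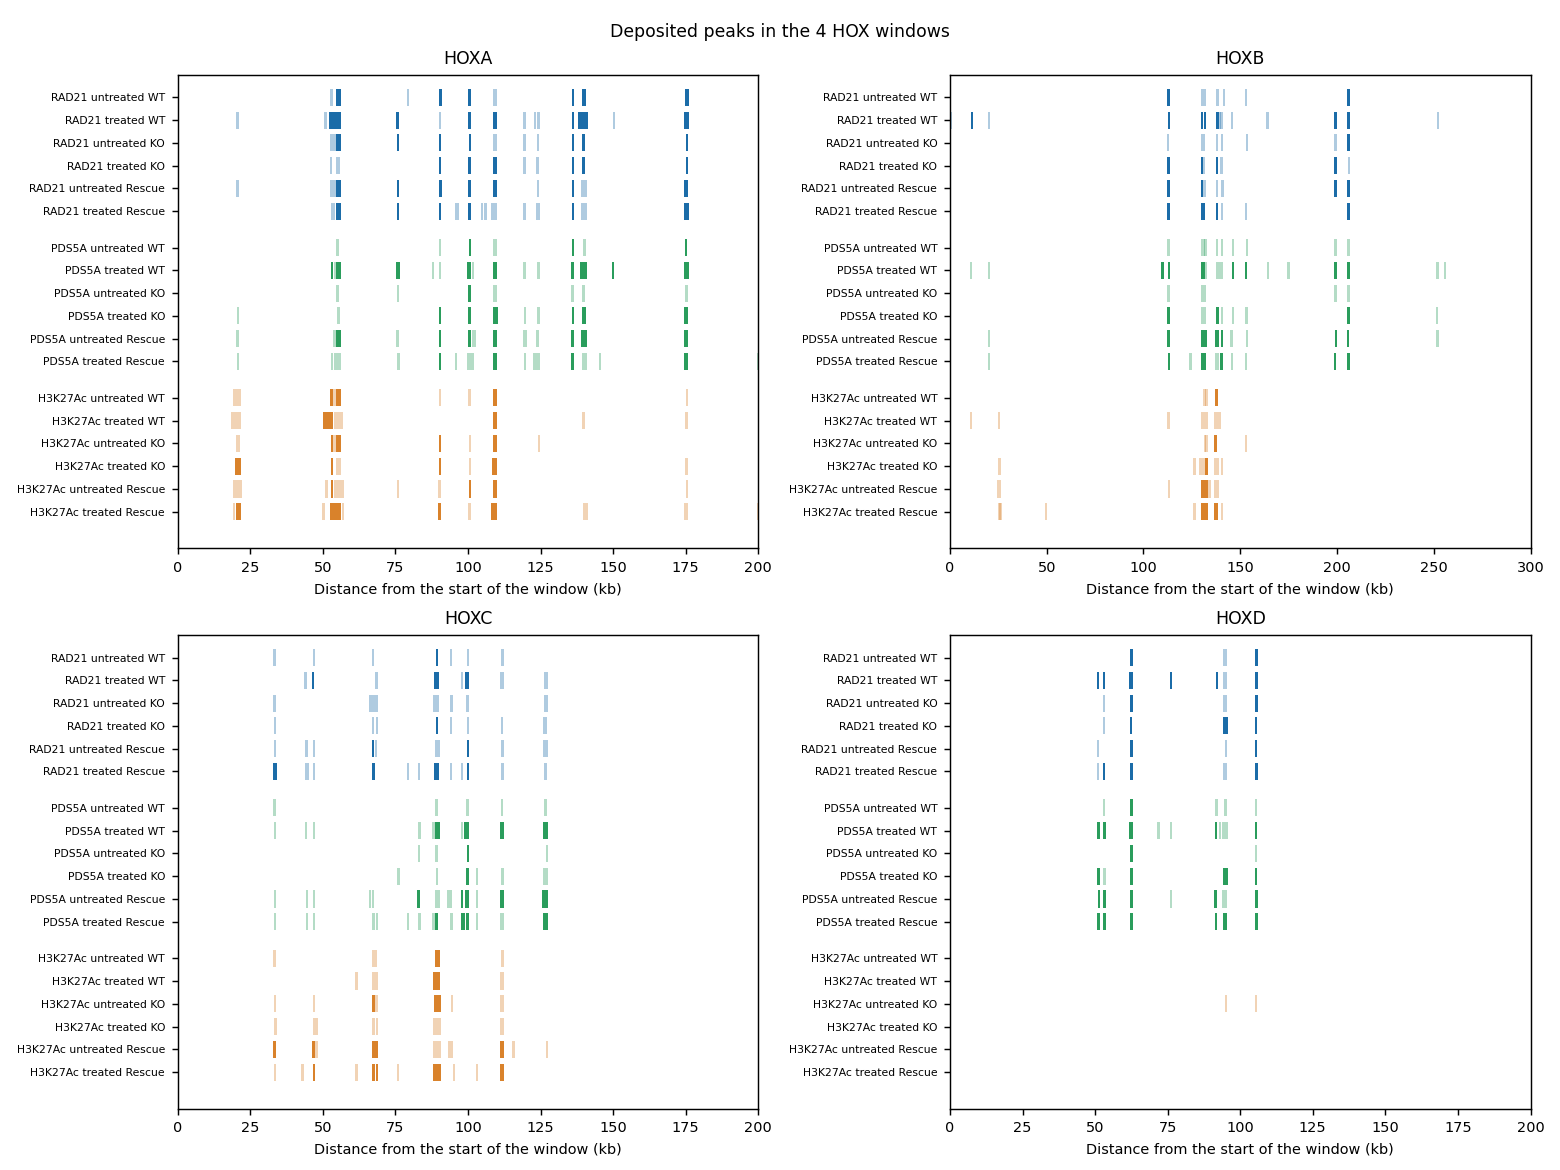
Peaks of RAD21, PDS5A and H3K27Ac in the 4 HOX windows, by distance from the window start in kb, with 1 row for each antibody and condition. IgG peaks are not drawn. Dark bars are peaks with an IDR of 0.05 or less and pale bars all others, and narrow peaks are widened to 0.8 kb (1.2 kb in HOXB) so that they can be seen. Of 54 RAD21 sites and 59 PDS5A sites in these windows, 17 and 14 have a bar in all 6 conditions, and HOXD has no H3K27Ac bar outside untreated KO.

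Peaks of 1 antibody were merged over the 6 conditions into sites where they overlapped by 1 bp or more. This gave 69 RAD21 sites, 86 PDS5A sites and 50 H3K27Ac sites. Of the RAD21 sites, 22 were listed in all 6 conditions (31.9%, interval 22.1% to 43.6%, against 21.9 percent of RAD21 sites in the genome) and 22 in 1 condition (31.9%, against 37.2 percent). Of the PDS5A sites, 17 were in all 6 (19.8%, against 13.3 percent) and 31 in 1 (36.0%, against 32.8 percent). For H3K27Ac 10 were in all 6 (20.0%, against 19.6 percent) and 21 in 1 (42.0%, against 43.0 percent). RAD21 sites present throughout were thus more frequent than over the genome by a margin just past counting error, and the other 5 shares lay within it. Sites in 1 cluster share their surroundings and are not independent, so these intervals are narrower than the true uncertainty. The RAD21 sites found in all 6 conditions were 7 of 18 in HOXA, 5 of 16 in HOXB, 2 of 13 in HOXC, 3 of 7 in HOXD and 5 of 15 in the protocadherins. Of these, 3 in HOXA, 2 in HOXD and 2 in the protocadherins had an IDR of 0.05 or less in every list. For no antibody was the genome's share of sites reproducible in every list computed, so such member counts cannot be set against it.

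The strongest RAD21 site of HOXD, at chr2:176961652-176962996, was present and reproducible in all 6 conditions. Its −log10 p values, the authors' own per peak and replicate, are given as lower and higher replicate and serve only to rank peaks within a list. They were 48.0 and 173 in untreated WT, 180.5 and 273.7 in treated WT, 51.1 and 74.6 in untreated KO, 51.8 and 74.6 in treated KO, 81.7 and 140.8 in untreated Rescue, and 65.3 and 168 in treated Rescue. By the lower value it ranked above 98.4% to 99.9% of the RAD21 peaks of its list. PDS5A peaked there (chr2:176961609-176963076) in all 6 conditions too, with lower values of 29.2, 92.5, 12.4, 31.8, 77.4 and 79.1 in the same order, each with an IDR of 0.05 or less. It was the only PDS5A site of the 5 clusters that was reproducible in all 6 lists. The whole untreated KO list held 911 reproducible PDS5A peaks. No H3K27Ac or IgG peak touched this HOXD site in any condition. A second HOXD site, chr2:177005121-177006159, was reproducible for RAD21 in all 6 lists, with lower values of 10.5, 37.6, 19.7, 25.6, 28.2 and 36.0. PDS5A was listed there in all 6 as well, and H3K27Ac in untreated KO. The third, chr2:176994035-176995649, was weaker (9.16, 6.33, 11.8, 17.6, 9.63 and 8.63), passed the IDR limit in treated KO alone, and lay on an IgG peak in untreated WT.

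HOXA had 3 RAD21 sites that were reproducible in every list. The distal one, chr7:27274519-27276196, had lower and higher values of 17.7 and 139.8 in untreated WT, 122.1 and 251.5 in treated WT, 34.1 and 74.9 in untreated KO, 48.4 and 67.2 in treated KO, 69.2 and 126.2 in untreated Rescue, and 84.1 and 188.9 in treated Rescue. It ranked above 93.6% to 99.7% of its lists. The replicate values of untreated WT were far apart here and at the strongest HOXD site. At chr5:140792449-140793502 in the protocadherins they were 22.7 and 47.6, closer than the 23.2 and 68.1 of treated WT. An IgG peak overlapped the distal HOXA site in untreated WT, and that site passed the IDR limit in the 5 conditions without one too. PDS5A was listed there in all 6 conditions and H3K27Ac in all except untreated KO.

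The central HOXA site, chr7:27199877-27201096, had lower RAD21 values of 18.4, 93.9, 48.6, 45.4, 50.2 and 33.1, and ranked above 92.0% to 99.3% of its lists. The PDS5A site over it, chr7:27199530-27202860, was the strongest PDS5A site of the HOX windows. Its lower and higher values were 45.9 and 99.7 in untreated WT, 140.2 and 140.6 in treated WT, 29.5 and 97.7 in untreated KO, 68.4 and 144.6 in treated KO, and 166.5 and 177 in untreated Rescue. In treated Rescue they were 6.65 and 232.9. The lower value there was below the list's median lower value of 9.30, and the peak missed the IDR limit. H3K27Ac was listed at the central site in all conditions except treated WT. The third, chr7:27235757-27236408, had lower RAD21 values of 16.1, 81.5, 23.1, 36.5, 42.3 and 59.6, had PDS5A throughout, and had no H3K27Ac peak in any condition.

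In HOXB the strongest RAD21 site, chr17:46662046-46663763, had lower values of 17.8, 91.2, 10.0, 19.9, 14.8 and 45.0 and passed the IDR limit in all lists except untreated KO. Within its list it ranked above 63.2% of peaks in untreated KO and above 99.2% in treated WT. PDS5A was present in all 6 conditions, with 12.5, 51.1, 8.56, 22.1, 21.3 and 27.2. Another site, chr17:46755416-46756514, had RAD21 values of 9.80, 46.9, 13.7, 5.13, 21.9 and 16.8 and missed the IDR limit in treated KO alone. Its PDS5A values were 12.1, 82.0, 13.2, 19.2, 47.7 and 33.7, the treated WT value being the highest for PDS5A in HOXB, and no H3K27Ac peak touched it.

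HOXC, like HOXB, had no RAD21 site that was reproducible in all 6 lists. The site at chr12:54387920-54390260 was listed throughout, with 11.3, 24.04, 12.1, 14.4, 17.4 and 10.6, together with PDS5A and H3K27Ac in all 6 conditions. It lay on an IgG peak in treated WT. A neighbouring site, chr12:54399092-54400433, had RAD21 values of 7.44, 23.2, 9.83, 4.20, 15.5 and 15.5 and no H3K27Ac in any condition. The PDS5A site over it, chr12:54397510-54400484, was the strongest of HOXC, with 14.7, 19.5, 20.6, 16.2, 60.3 and 24.2.

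**Figure D2:**
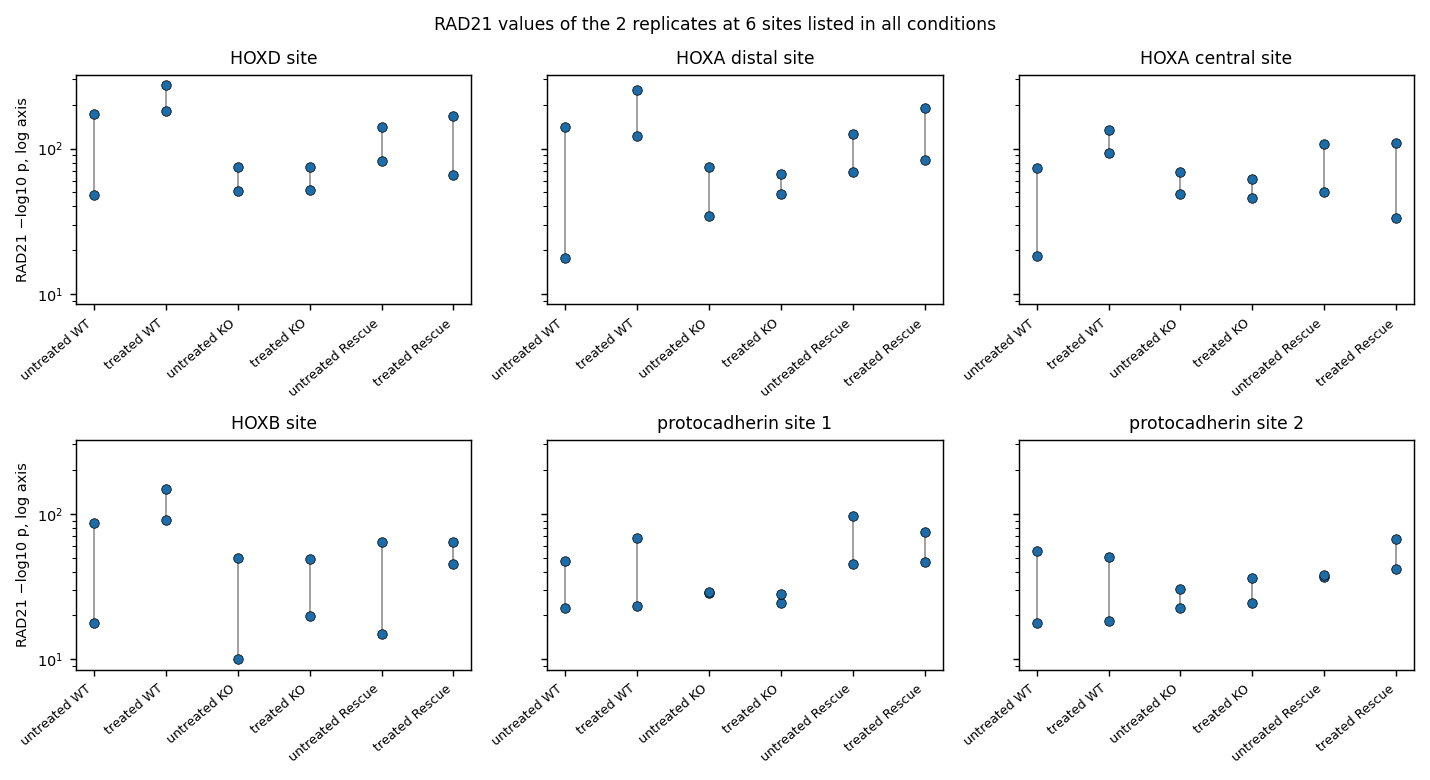
The −log10 p values of both replicates at 6 named RAD21 sites, on a log axis, for the 6 conditions; each pair of points is 1 condition. The values of treated WT at the HOXD site (180.5 and 273.7) are the highest shown, and the points of untreated WT lie far apart in most panels.

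The protocadherin window, 800 kb long, held 6 RAD21 peaks in untreated WT, 12 in treated WT, 8 in untreated KO, 9 in treated KO, 12 in untreated Rescue and 14 in treated Rescue. PDS5A counts were 8, 16, 8, 9, 18 and 18, and H3K27Ac counts 3, 3, 4, 5, 5 and 6. A pair of RAD21 sites was reproducible in all 6 lists. The site at chr5:140792449-140793502 had lower and higher values of 22.7 and 47.6 in untreated WT, 23.2 and 68.1 in treated WT, 28.4 and 28.9 in untreated KO, 24.3 and 28.2 in treated KO, 45.0 and 96.2 in untreated Rescue, and 46.9 and 74.6 in treated Rescue. Its rank was above 83.4% of the treated WT list and above 94.9% to 96.8% of the others. PDS5A was listed there in all 6 conditions (14.7, 48.6, 15.2, 14.0, 59.3 and 12.5), and neither H3K27Ac nor IgG in any.

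The other, chr5:140305647-140306953, had lower RAD21 values of 17.8, 18.3, 22.4, 24.3, 37.0 and 41.7, and ranked above 76.4% of the treated WT list and 91.2% to 95.8% of the others. Its PDS5A values were 8.93, 24.9, 11.8, 13.9, 34.7 and 45.1. H3K27Ac was listed there in both KO conditions and in treated Rescue, with 6.52, 5.82 and 4.97, none reproducible. Between these sites, chr5:140419311-140421201 had RAD21 and PDS5A in all 6 conditions, with RAD21 values of 6.45, 14.2, 6.29, 10.3, 9.39 and 18.1, and no H3K27Ac. The remaining pair listed for RAD21 in all 6, chr5:140800306-140801246 and chr5:140855125-140856468, passed the IDR limit in no list.

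**Figure D3:**
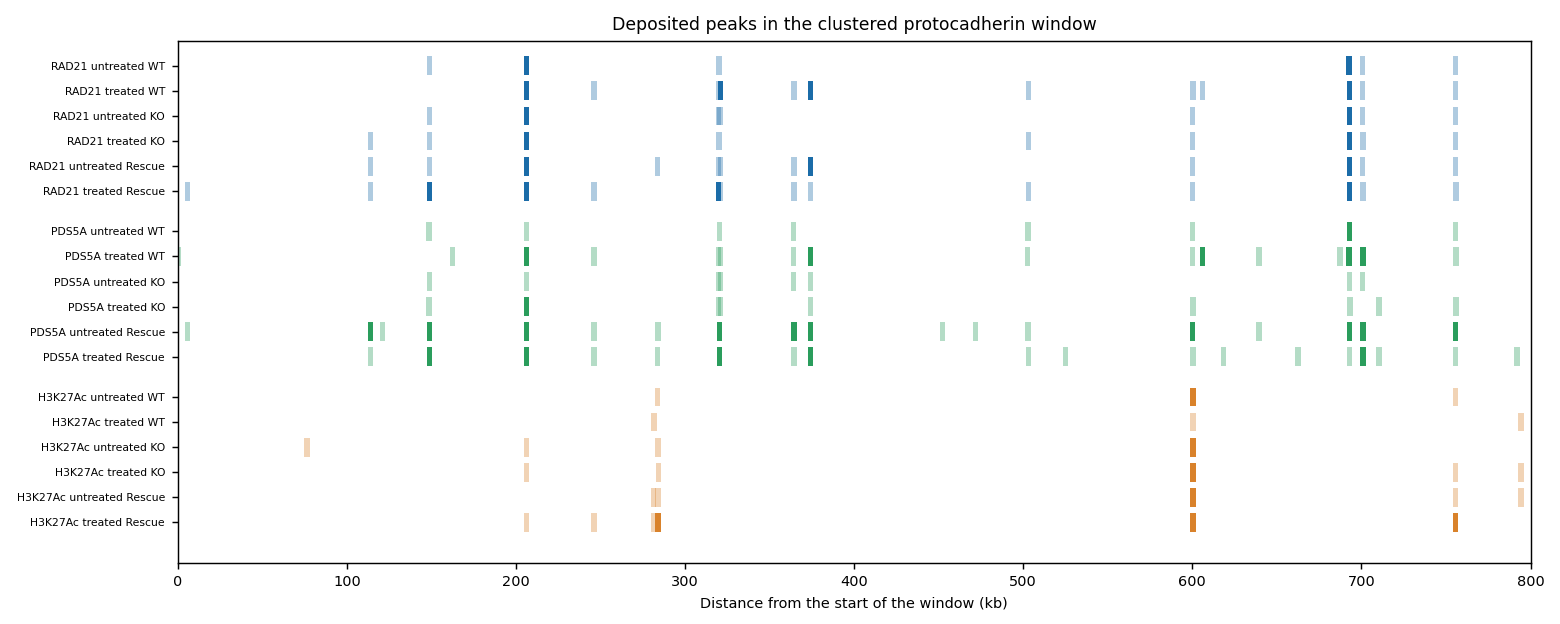
Peaks of RAD21, PDS5A and H3K27Ac in the 800 kb protocadherin window by distance from its start in kb, with 1 row for each antibody and condition. Dark bars have an IDR of 0.05 or less, and narrow peaks are widened to 3.2 kb. RAD21 columns run through all 6 rows at 5 places, and H3K27Ac bars number 3 to 6 a row.

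H3K27Ac peaks were listed in HOXD in untreated KO only, and in the other 4 clusters in every condition. HOXA held 8, 7, 8, 7, 9 and 12 H3K27Ac peaks in the order of conditions above, HOXB 3, 8, 4, 8, 6 and 8, HOXC 5, 5, 7, 7, 11 and 11, and HOXD 0, 0, 2, 0, 0 and 0. The median genome window of 200 kb held 1 or 2 H3K27Ac peaks, so HOXD lay 1 or 2 below it where it had 0. A count of 0, which allows up to 3 counts, left room for a HOXD share of up to 0.0133% of the untreated WT list and 0.00663% of the treated Rescue list. The 2 peaks of untreated KO were 0.00845% of their list, below that limit for untreated WT. A difference between untreated KO and untreated WT was therefore not shown. In untreated KO, 62% of genome windows of 200 kb held fewer than 2 H3K27Ac peaks. Over the protocadherins between 48.9% and 71.1% of 3400 genome windows of 800 kb held as many H3K27Ac peaks or more. Only HOXA had H3K27Ac sites that were reproducible in all 6 lists. They were chr7:27208016-27210154, with lower values of 16.6, 19.3, 19.8, 49.1, 41.1 and 50.3, and chr7:27150026-27157307, with 24.5, 14.9, 43.5, 16.8, 21.1 and 25.9. The first ranked above 87.2% to 99.7% of its lists. The second overlapped an IgG peak in treated WT and in untreated Rescue.

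In HOXB the H3K27Ac site at chr17:46686235-46688914 had the highest lower value of the H3K27Ac members (70.2, with 87.1 in the other replicate, in treated Rescue). Its lower and higher values were 35.7 and 49.5 in untreated WT, 7.85 and 27.9 in treated WT, 37.4 and 43.3 in untreated KO, 3.14 and 50.3 in treated KO, and 6.94 and 52.9 in untreated Rescue. The peak missed the IDR limit in treated WT, treated KO and untreated Rescue, where the replicates lay far apart, and its rank by the lower value ran from above 1.86% to above 99.5% of the list. In HOXC the site at chr12:54387831-54390643 had 27.99, 35.3, 17.1, 10, 4.93 and 58.9, and it lay on an IgG peak in treated WT, as did the HOXB site. The protocadherin site listed in all 6 conditions, chr5:140699787-140700839, had 28, 8.99, 16.1, 14.7, 21.8 and 23.97 and missed the IDR limit in treated WT.

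In the pooled lists, RAD21 peaks of these clusters met PDS5A more often than did all RAD21 peaks. PDS5A peaks met RAD21 about as often as all PDS5A peaks in HOX, and less often in the protocadherins. RAD21 and PDS5A peaks both met H3K27Ac less often than did all peaks of those lists. Over the 6 lists, 165 of 199 HOX RAD21 peaks (82.9%) and 54 of 61 protocadherin RAD21 peaks (88.5%) overlapped a PDS5A peak of the same cells, against 72.9 percent of all RAD21 peaks. For H3K27Ac the counts were 96 of 199 in HOX (48.2%) and 14 of 61 in the protocadherins (22.95%), against 63.0 percent. HOXA, HOXB and HOXC gave 41 of 71, 24 of 50 and 29 of 51, and HOXD 2 of 27, both in untreated KO. PDS5A peaks met RAD21 in 164 of 214 cases in HOX (76.6%) and 53 of 77 in the protocadherins (68.8%), against 75.2 percent. They met H3K27Ac in 82 of 214 (38.3%) and 15 of 77 (19.5%), against 58.0 percent, with 1 of 34 in HOXD. H3K27Ac peaks met RAD21 in 93 of 136 (68.4%) and 14 of 26 (53.8%), against 40.9 percent. In untreated KO, whose PDS5A list was the shortest, 17 of 31 HOX RAD21 peaks (54.8%, 37.8% to 70.8%) and 6 of 8 protocadherin peaks (75%, 40.9% to 92.8%) met PDS5A, against 38.9% of that list. The same position recurs in several lists, so no interval is given for the sums over 6.

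Counted once per site over the 6 conditions, 29 of 54 HOX RAD21 sites (53.7%, interval 40.6% to 66.3%) and 5 of 15 protocadherin sites (33.3%, 15.2% to 58.3%) met H3K27Ac in at least 1 condition, against 65.0% of the genome's RAD21 sites. The HOX interval includes the genome share and the protocadherin interval does not. PDS5A was met by 49 of 54 HOX RAD21 sites (90.7%, 80.1% to 96.0%) and 15 of 15 protocadherin sites, against 81.6%. Of the PDS5A sites, 30 of 59 in HOX (50.8%, 38.4% to 63.2%) and 5 of 27 in the protocadherins (18.5%, 8.18% to 36.7%) met H3K27Ac, against 61.2%. RAD21 was met by 48 of 59 HOX PDS5A sites (81.4%, 69.6% to 89.3%), against 82.1% of the genome's. In the protocadherins it was met by 15 of 27 (55.6%, 37.3% to 72.4%), below the genome's share. Among H3K27Ac sites, 28 of 42 in HOX (66.7%, 51.6% to 79.0%) and 5 of 8 in the protocadherins (62.5%, 30.6% to 86.3%) met RAD21, against 40.6%. With peaks of an IDR of 0.05 or less, RAD21 met H3K27Ac in 21.98% of HOX peaks against 38.2% of the list. It did so in 0 of 17 protocadherin peaks and 0 of 18 HOXD peaks, where the 3 counts that a 0 allows are shares of 17.6% and 16.7%.

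**Figure D4:**
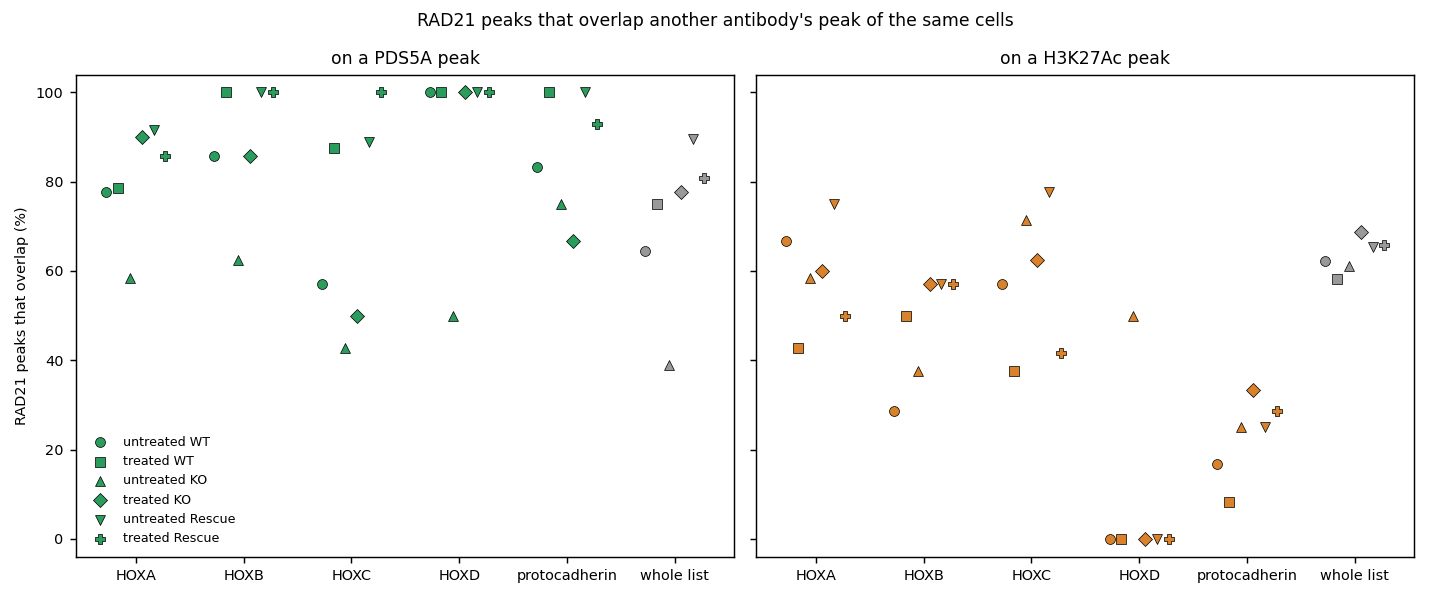
Percent of RAD21 peaks that overlap a PDS5A peak (left) or an H3K27Ac peak (right) of the same cells, for each cluster and for the whole list; each point is 1 condition. HOXD lies at 0 for H3K27Ac in all conditions except untreated KO, and the protocadherins lie below the whole list in all 6 (22.95% against 63.0 percent over the 6 lists).

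Osimertinib was compared with no treatment within each genotype. In WT, 30 of 61 RAD21 sites were in the treated list only and 7 in the untreated list only (24 and 6 of 49 in HOX, 6 and 1 of 12 in the protocadherins). Over the genome 62.0 percent and 2.85 percent of sites fell in these classes. The members' 49.2% (37.1% to 61.4%) lay below the first and their 11.5% (5.67% to 21.8%) above the second. In KO, 3 of 39 sites were in the treated list only and 2 in the untreated list only, against 17.2 and 23.1 percent, and 34 were in both. In Rescue these were 13 and 4 of 54, against 20.7 and 15.3 percent. The untreated-only share of the members in KO was 5.13% (1.42% to 16.9%) and rests on 2 sites. Under an IDR limit of 0.05 the treated-only and untreated-only sites were 7 and 3 in KO and 7 and 3 in Rescue. The whole RAD21 lists under that limit held 4372 treated and 5369 untreated peaks in KO, and 11103 and 9188 in Rescue. Site shares of the genome under it were not computed.

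Among peaks with an IDR of 0.05 or less, 15 RAD21 sites were in the treated WT list only and 1 in the untreated WT list only. The whole lists under that limit held 16655 RAD21 peaks in treated WT and 3691 in untreated WT. Site shares of the genome under that limit were not computed, so these counts cannot be set against it. None of the 7 sites listed in untreated and not in treated WT had passed that limit there. Those 7 include chr12:54332683-54334075, with a lower value of 15.4 in untreated WT, and chr5:140248433-140249385, with 3.31. Both were listed in 5 conditions. Of the 30 sites listed in treated and not in untreated WT, the strongest was chr17:46748834-46749550 in HOXB, with 61.1 in treated WT, above 97.8% of its list. It also had RAD21 in both KO lists and in untreated Rescue, with 8.61, 14.4 and 14.0. Next was chr7:27175345-27176261 in HOXA, with 46.3 in treated WT, 14.3 in untreated KO, 15.5 in untreated Rescue and 11.01 in treated Rescue. At both places KO or Rescue cells had the peak without treatment too.

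For PDS5A in WT, 30 of 62 sites were in the treated list only and 1 in the untreated list only, against 60.5 and 2.79 percent. Both were within counting error, the first only just. Its 48.4% (36.4% to 60.55%) had the genome's share at the upper bound and was close to the RAD21 members' 49.2%. In KO 17 and 5 of 41 sites fell in these classes, against 53.3 and 8.45 percent, and in Rescue 14 and 8 of 71, against 9.23 and 26.5 percent. The Rescue shares of the members were 19.7% (12.1% to 30.4%) and 11.3% (5.82% to 20.7%), above and below the genome's. Counting only peaks with an IDR of 0.05 or less turned the order of the member counts. It gave 2 sites in the treated Rescue list only and 11 in the untreated Rescue list only. The whole lists under that limit held 11466 treated and 14049 untreated peaks. Site shares of the genome under it were not computed, so the turned order cannot be set against the genome's.

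For H3K27Ac, 9 and 5 of 25 sites in WT were in the treated or untreated list only, against 54.8 and 6.37 percent of the genome's. In KO these were 9 and 6 of 31, against 44.9 and 8.40 percent, and in Rescue 13 and 9 of 42, against 24.5 and 16.2 percent. Losses in WT (20.0%, 8.86% to 39.1%) and KO (19.4%, 9.19% to 36.3%) exceeded the genome's share and rested on 5 and 6 sites. With an IDR of 0.05 or less the gains and losses were 1 and 2 in WT, 2 and 3 in KO, and 6 and 2 in Rescue. The whole H3K27Ac lists under that limit held 10214 treated and 5108 untreated peaks in WT and 8511 and 5497 in KO. In Rescue they held 13245 and 14446. Site shares of the genome under that limit were not computed.

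A RAD21 site listed under osimertinib in all 3 genotypes and untreated in none occurred once, at chr5:140602818-140603232 in the protocadherins, and the genome's share was 0.883 percent. Its lower values were 8.07, 6.86 and 7.28 in WT, KO and Rescue, none with an IDR of 0.05 or less. PDS5A was listed at that place in both WT and both Rescue conditions, treated or not. No PDS5A member and no H3K27Ac member had that pattern, against 0.477 and 1.11 percent.

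As a share of the list, HOX RAD21 peaks under osimertinib were 0.661 times the untreated share in WT (0.407 to 1.08), from 26 peaks untreated and 43 treated while the list grew 2.50-fold. The ratio was 1.00 in KO (0.606 to 1.67) and 1.11 in Rescue (0.696 to 1.78). PDS5A ratios were 0.796 (0.496 to 1.28), 0.917 (0.508 to 1.66) and 1.35 (0.894 to 2.04), and H3K27Ac ratios 0.641 (0.332 to 1.24), 0.633 (0.348 to 1.15) and 1.04. In the protocadherins RAD21 gave 0.80, 1.21 and 1.09, PDS5A 0.828, 0.566 and 1.24, and H3K27Ac 0.513, 0.755 and 1.05. Every interval included 1, also for the 18 comparisons of these ratios between genotypes. No change of share was therefore detectable at these peak counts. At an IDR of 0.05 or less the WT ratio of HOX RAD21 was 0.463 (0.226 to 0.95), from 11 peaks untreated and 23 treated.

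**Figure D5:**
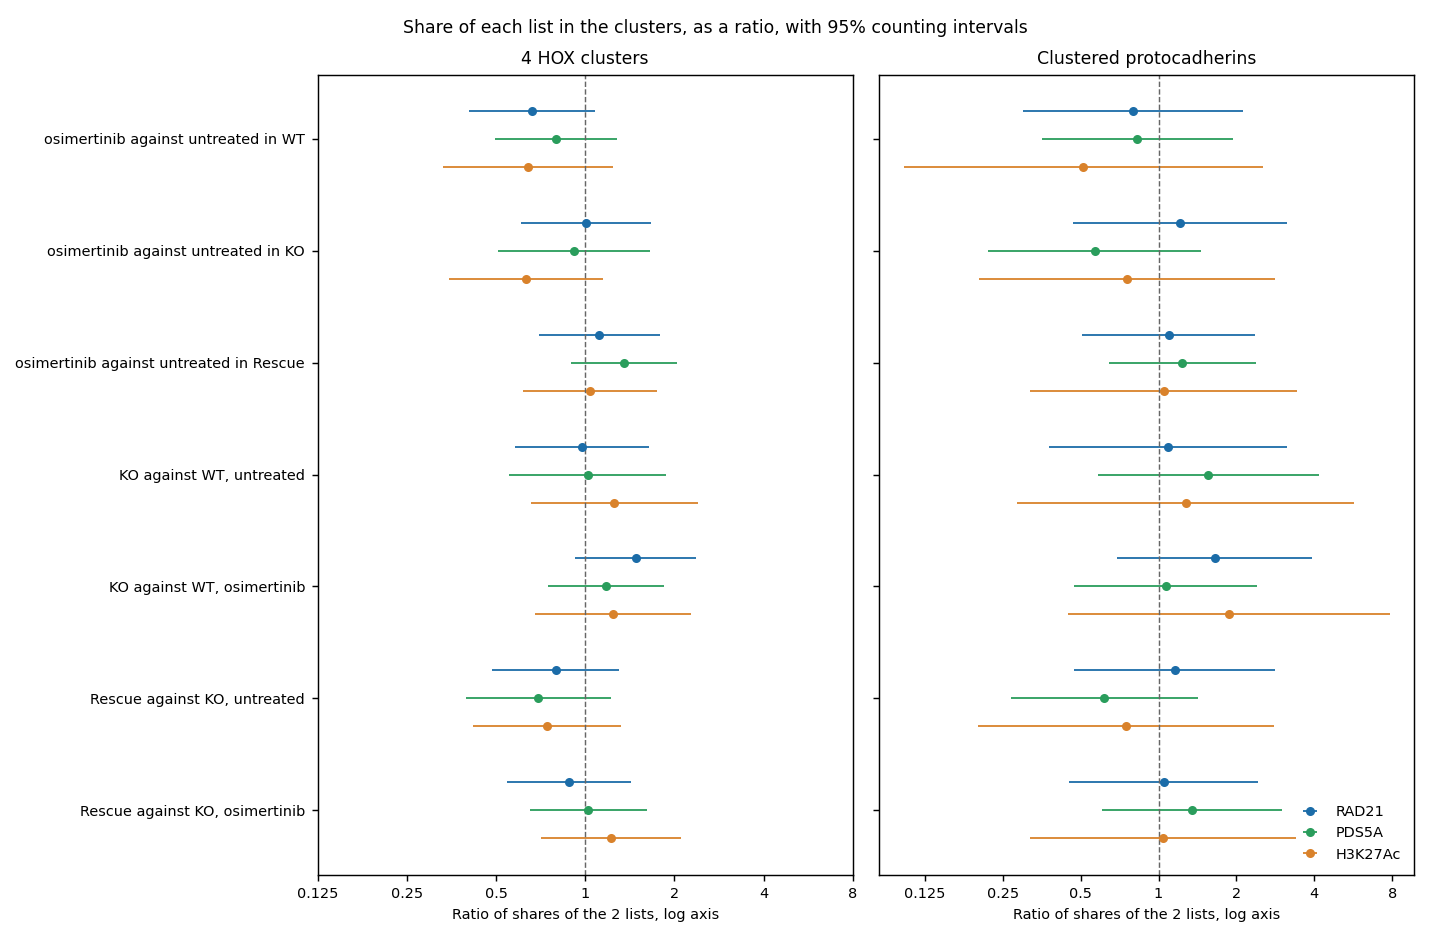
Ratios of the shares of a list that lie in the HOX or protocadherin windows, on a log axis, with 95% counting intervals, for 7 contrasts and 3 antibodies. All 42 intervals cross the line at 1, between the lowest ratio of 0.513 and the highest of 1.88.

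Genotypes were compared within a treatment. KO over WT gave HOX RAD21 share ratios of 0.974 untreated (0.579 to 1.64) and 1.48 under osimertinib (0.925 to 2.37), and Rescue over KO 0.795 (0.485 to 1.30) and 0.881 (0.543 to 1.43). For HOX PDS5A these were 1.02, 1.18, 0.695 (0.397 to 1.22) and 1.02, and for HOX H3K27Ac 1.25, 1.24, 0.742 and 1.22. In the protocadherins the same 4 contrasts gave RAD21 ratios of 1.09, 1.65, 1.155 and 1.05. PDS5A gave 1.56, 1.07, 0.618 and 1.35 there, while H3K27Ac gave 1.27, 1.88, 0.749 and 1.04. None of the intervals left out 1. With the IDR limit of 0.05, 3 of 37 ratios did. Besides the WT ratio above, these were KO over WT under osimertinib for HOX RAD21, at 2.32 (1.19 to 4.50), and Rescue over KO under osimertinib for HOX PDS5A, at 0.484 (0.243 to 0.964). Both RAD21 ratios rest on the treated WT list.

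The next pattern is a site listed in WT and Rescue and not in KO, the 2 genotypes labelled as having METTL7A against the one without. Untreated, 2 of 69 RAD21 sites, 12 of 86 PDS5A sites and 2 of 50 H3K27Ac sites had this pattern, against 4.01, 15.2 and 5.55 percent of the genome's. Under osimertinib 8 RAD21, 14 PDS5A and 3 H3K27Ac sites had it, against 15.3, 14.9 and 4.51 percent. All 6 shares were within counting error of the genome's. The opposite pattern, KO alone, was shown untreated by 2 RAD21, 0 PDS5A and 6 H3K27Ac sites, against 4.30, 0.349 and 3.81 percent, and under osimertinib by 0, 1 and 2, against 0.978, 1.15 and 7.12 percent.

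The 12 PDS5A sites missing from untreated KO were 1 in HOXA, 3 in HOXB, 2 in HOXC, 3 in HOXD and 3 in the protocadherins. None had an IDR of 0.05 or less in untreated WT and 7 had in untreated Rescue. Of all PDS5A peaks, 12.2% in untreated WT and 41.8% in untreated Rescue were within that limit. In treated KO 9 of the 12 were listed, and the genome's share for this was not computed. One of the 3 absent from both KO lists was chr2:176990801-176992177 in HOXD, with 10.97 in untreated WT, 25.3 in treated WT, 33.4 in untreated Rescue and 24.1 in treated Rescue. RAD21 was listed there in treated WT and H3K27Ac in no condition. The others were chr12:54333192-54333879, with 3.24, 4.58, 5.36 and 7.99 in that order, and chr5:140602090-140603308, with 4.02, 5.66, 9.94 and 6.95. The 3 HOXB sites, chr17:46687079-46691200, chr17:46694917-46696928 and chr17:46702395-46703700, were missing from untreated KO and listed in the 5 other conditions. Their treated KO values were 15.2, 5.39 and 3.26. The short untreated KO list moves with this pattern, and its part in the result was not tested.

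For RAD21, 1 site was in both WT and both Rescue lists and in neither KO list, chr12:54346195-54347342 in HOXC. Its lower values were 5.96 and 12.9 in untreated and treated WT and 5.62 and 7.64 in untreated and treated Rescue. H3K27Ac was listed there in both KO and both Rescue conditions and in neither WT condition. Under osimertinib the RAD21 sites in WT and Rescue and not KO were 1 in HOXA, 3 in HOXC, 1 in HOXD and 3 in the protocadherins. The strongest of the last, chr5:140474032-140474607, had 14.2 in treated WT, 17.4 in untreated Rescue and 10.7 in treated Rescue. PDS5A was listed there in all conditions except untreated WT, so in both KO lists too, and H3K27Ac in none.

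H3K27Ac sites of untreated KO alone made up 6 of 50 (12%, 5.62% to 23.8%), above the genome's 3.81 percent, and none had an IDR of 0.05 or less. They were 1 in HOXA, 1 in HOXB, 2 in HOXD and 2 in the protocadherins. Both HOXD sites, chr2:176994708-176995458 and chr2:177005309-177005703, had low values (5.69 and 8.53, 5.91 and 10.6) and lay on RAD21 sites present in all 6 conditions. The first also lay on the untreated WT IgG peak. The HOXA site, chr7:27223997-27224713, had a lower value of 4.86 and lay on an IgG peak of treated KO. The HOXB site, chr17:46702393-46703599, had 5.89, and the protocadherin sites, chr5:140176233-140176696 and chr5:140305942-140306650, had 3.996 and 6.52. The last was also listed in treated KO and treated Rescue.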

How the data were processed

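CUT&RUN reads were trimmed with Trimmomatic, checked with FastQC and aligned with Bowtie2 2.4.2 to GRCh37, and the notes also name the peak caller MACS2 2.2.7.1, deepTools 3.5.1, SAMtools 1.16 and bedtools 2.30, all per the submitters' processing notes. Peak thresholds, the control used and the IDR program's settings are not given in the sources used here. The deposited lists give, for each peak matched in both replicates, −log10 p values of each replicate and a −log10 IDR score as the authors made them. Which value belongs to which replicate is not given, and read depth is unknown. Counts over the genome use chromosomes 1 to 22 and X, except the total of 507516 peaks, which holds every row.

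From these lists, members were selected by overlap with the windows (1 bp or more), shares of a list were compared as ratios with log-normal (Katz) intervals, single shares carry Wilson intervals, a share of 0 carries the limit of 3 counts of the total instead, and sites were merged by overlap of 1 bp. Code was run in Python 3.11.15 with numpy 2.4.6, pandas 2.3.3 and matplotlib 3.10.9, and was tested on simulated data. Named sites are, for each cluster and antibody, the highest-valued site, up to 3 sites in all 6 conditions, those with the treatment or genotype patterns, and the IgG peaks. Some further sites were named after their values were seen. Members and lists were chosen with earlier results of these data known. Alternatives were stricter IDR limits, removal of peaks on IgG peaks, equal list lengths, covered bases, wider windows, 50% overlap and each replicate's own boundaries. No test between conditions was made.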

Additional observations from a re-analysis of the deposited data

How the results depend on the processing

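No paired analysis was possible because each list joins both replicates and the results come from no test. Leaving out a replicate could not be run for the same reason, so each replicate's own peak boundaries were used instead. All 42 share ratios stayed inside the counting intervals of the reported values with covered bases, equal list lengths, windows widened by 50 kb, IgG peaks removed or either replicate's boundaries. At an IDR of 0.05 or less, 5 of 42 ratios had no value because a count was 0, and at 0.01 or less 12 had none.

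At an IDR of 0.05 or less the HOX RAD21 ratio for osimertinib in KO was 1.72, that of Rescue over KO under osimertinib 0.506, the HOX PDS5A ratio of Rescue over KO under osimertinib 0.484, and the protocadherin PDS5A ratio for osimertinib in Rescue 0.613. At 0.01 or less, RAD21 gave 0.367 for HOX osimertinib in WT and 0.538 for HOX Rescue over KO under osimertinib. In the protocadherins RAD21 gave 0.171 for osimertinib in WT, 4.85 for KO over WT and 0.314 for Rescue over KO, both under osimertinib. PDS5A gave 0.767 for HOX osimertinib in Rescue, 0.442 for HOX Rescue over KO under osimertinib and 0.374 for protocadherin osimertinib in Rescue. H3K27Ac gave 0.286 for HOX osimertinib in KO and 0.318 for HOX Rescue over KO untreated. These limits leave few member peaks.

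At an IDR of 0.05 or less the overlap shares (HOX, then protocadherins) were 67.0% and 64.7% for RAD21 on PDS5A, 21.98% and 0% for RAD21 on H3K27Ac, 68.2% and 50% for PDS5A on RAD21, 14.8% and 4.55% for PDS5A on H3K27Ac, and 46.3% and 0% for H3K27Ac on RAD21. The whole lists gave 56.6%, 38.2%, 63.3%, 34.4% and 33.6% in that order. The protocadherin shares of 0% were 0 of 17 RAD21 peaks and 0 of 7 H3K27Ac peaks. The 3 counts that a 0 allows are 17.6% and 42.9% of these. The second limit lies above the whole list's 33.6%, so no difference was shown there. Site counts in 1 list only, treated then untreated, were 15 and 1 for RAD21 in WT. Treated-only counts were 7 for RAD21 in KO, 7 for RAD21 in Rescue and 2 for PDS5A in Rescue (with 11 untreated-only), and untreated-only counts for PDS5A were 0 in WT and 0 in KO. H3K27Ac gave 1 and 2 in WT, 2 and 3 in KO, and 6 and 2 in Rescue. Without peaks on IgG peaks, PDS5A had 4 untreated-only sites in WT. The cause of these shifts was not tested. No genome share was computed for the site counts under the IDR limit, and the lists under it differed in length.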
